A study of Mus musculus with 8 samples.

Results

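The enzymes described here build and cap the sugar chains that are attached to serine and threonine of secreted and membrane proteins. They are the array rows whose gene symbol begins with Galnt, C1galt, Gcnt, St3gal or St6gal, a rule that uses names and no measured value. It found 37 rows for 37 genes among the 22206 rows of the table, with 19 rows for initiation, 2 for core 1, 5 for branching and 11 for sialylation. The RefSeq gene table lists 40 protein-coding genes with these names. St6galnac4, St6galnac6 and St6gal2 have no row under their symbol and were not analysed here.

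RNA came from the left ventricle of untreated male mice of strain C57/BL6J, aged 8 weeks, and each array measured 1 sample. The first group held 4 wild type samples and the second 4 samples with cardiac-specific overexpression of microRNA-100, called miR-100 hearts below. Per the labels, the miR-100 hearts came from Cre positive miR100flox/+ males, bred by crossing Myh6-Cre mice (B6.FVB-Tg(Myh6-Cre)2182/J) with miR-100flox/flox mice, all of the C57/BL6J background. The Myh6 promoter is active in heart muscle cells, so the array reads a ventricle in which Cre acts in 1 of several cell types. The wild type samples are labelled only by that word, with no Cre named, so effects of Cre itself and of miR-100 cannot be told apart. The samples are taken as separate mice because of the wording of the design, and the p-values speak only of the spread among them.

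In mucin-type O-glycosylation, a GalNAc transferase of the Galnt family first places N-acetylgalactosamine on the protein inside the Golgi. C1galt1 then adds galactose and makes the core 1 disaccharide. Gcnt enzymes such as Gcnt1 add a branching N-acetylglucosamine, which turns core 1 into core 2. Sialyltransferases of the St3gal and St6gal groups cap the chains with sialic acid, and capping of core 1 competes with branching. Part of these families works on other carriers, such as N-linked chains (St6gal1) or glycolipids (St3gal5), so the families are wider than O-glycans alone. In muscle and heart these sugars sit on membrane receptors, on adhesion proteins and on the prohormone of B-type natriuretic peptide.

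The mature microRNA that the second group overexpresses is shown with the family members that share its seed, bases 2 to 8, in capitals, since the seed is the part that pairs with target RNA. The sequences come from RefSeq, build GRCm38.p6, and lie at chr9:41531437-41531458, chr16:77598940-77598961 and chr17:17830194-17830215, all on the plus strand.
mmu-miR-100-5p: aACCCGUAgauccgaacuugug
mmu-miR-99a-5p: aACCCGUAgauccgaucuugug
mmu-miR-99b-5p: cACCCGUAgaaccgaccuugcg

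Gcnt1, the core 2 branching enzyme, had 3 start windows in the RefSeq promoter table, each running from 250 bases before to 50 bases after a transcript start. Its array row is annotated with 3 RefSeq mRNAs and gives 1 value for all of them, so a change cannot be assigned to a start. The windows lie on the minus strand at chr19:17372795-17373094, chr19:17356618-17356917 and chr19:17339456-17339755 (GRCm38.p6). They are printed with the window of St3gal5 on the plus strand at chr6:72097358-72097657, because these are the genes whose groups did not overlap. Capitals mark matches on either strand to 4 motifs that do not overlap in these windows, namely the E-box CACGTG, the TATA box TATAAA, the GC box GGGCGG and the AP-1 site TGACTCA.
Gcnt1 start 1: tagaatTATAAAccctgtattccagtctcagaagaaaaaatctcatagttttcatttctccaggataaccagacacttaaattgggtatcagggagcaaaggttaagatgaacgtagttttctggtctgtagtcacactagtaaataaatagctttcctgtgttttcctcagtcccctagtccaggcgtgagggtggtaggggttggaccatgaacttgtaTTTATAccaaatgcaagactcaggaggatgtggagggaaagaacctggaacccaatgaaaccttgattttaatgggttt
Gcnt1 start 2: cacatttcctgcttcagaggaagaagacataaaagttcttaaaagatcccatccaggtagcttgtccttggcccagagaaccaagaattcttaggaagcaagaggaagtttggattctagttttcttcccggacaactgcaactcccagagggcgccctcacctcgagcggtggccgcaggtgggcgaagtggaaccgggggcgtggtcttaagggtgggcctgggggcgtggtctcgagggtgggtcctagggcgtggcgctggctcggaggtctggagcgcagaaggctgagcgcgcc
Gcnt1 start 3: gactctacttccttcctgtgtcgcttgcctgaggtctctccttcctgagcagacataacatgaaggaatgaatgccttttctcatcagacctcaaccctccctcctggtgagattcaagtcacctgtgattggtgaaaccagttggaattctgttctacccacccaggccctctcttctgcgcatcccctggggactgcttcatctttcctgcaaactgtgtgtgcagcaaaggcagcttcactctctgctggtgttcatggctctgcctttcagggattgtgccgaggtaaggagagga
St3gal5 start 1: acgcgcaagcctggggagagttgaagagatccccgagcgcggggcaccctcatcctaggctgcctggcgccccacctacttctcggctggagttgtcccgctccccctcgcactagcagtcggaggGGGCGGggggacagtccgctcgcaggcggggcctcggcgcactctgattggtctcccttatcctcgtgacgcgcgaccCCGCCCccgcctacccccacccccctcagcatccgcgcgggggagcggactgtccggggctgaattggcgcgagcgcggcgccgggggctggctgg

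The Gcnt1 windows differed in composition. The first had 40.7% G and C with 2 CpG pairs, the second 58.7% with 16, and the third 52.0% with 3, against medians of 52.7% and 7 over all 32851 windows. The St3gal5 window was richer, at 72.7% with 33 CpG pairs. The first Gcnt1 window held 2 matches to the TATA box, beginning at bases -244 and -29 from the start. The match at -244 lies on the printed strand and the one at -29 on the opposite strand. On either strand, 13.6% of all windows hold that motif. The St3gal5 window held 2 matches to the GC box, at -124 and -46, a motif in 35.7% of all windows. No window of these 4 held the E-box, found in 7.15% of all windows, or the AP-1 site, found in 5.20%. These matches describe letters and not bound sites. Promoter windows were given for 25 of the 37 genes.

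The 8 arrays were alike, with correlations from 0.988 to 0.993 over all rows. On the first principal component all wild type arrays had negative and all miR-100 arrays positive values. Wild type replicate 2 stood apart at -38.2, the other 3 of its group lying between -13.0 and -3.49. In the miR-100 group replicate 2 stood apart at 30.8, the others lying between 8.96 and 13.5. For several family rows the difference is also given without wild type replicate 2. Values are log2 signals, so a difference of 1 is a doubling, and a difference is always miR-100 minus wild type. No row is named for miR-100, and its own level was not analysed here. Marker rows of heart muscle (Myh6, Tnnt2, Actc1, Ryr2 and Pln) had row means at or above percentile 98.5 of the table.

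Of the 37 enzymes, Gcnt1 rose and no other passed the test. It was 3.04-fold higher in miR-100 hearts, while its 4 relatives that branch chains had differences between -0.39 and 0.05. The enzymes that start the chains, make core 1 and add sialic acid had differences between -0.415 and 0.64, of which none passed. At an adjusted p under 0.05 (limma, Benjamini-Hochberg over all rows) 1 of 37 rows was called, higher, against a background of 31 of 22206 rows or 0.140%, and 0.0946% for higher rows alone. Groups did not overlap in 2 of 37 rows, both higher in miR-100 hearts, against 4.54% of all rows in either direction and 2.21% higher. At an unadjusted p under 0.05 there were 4 of 37, against 7.73% of all rows. The call of Gcnt1 was known from earlier results of these data when members were chosen, so the first share measures no excess. The last 2 shares rest on few rows. No result about the families as a whole is read from any of these shares.

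The median difference of the 37 rows was -0.015, the same as over all 22206 rows, with 16 above 0 and 21 below. In 29 of the 37 the difference was smaller than 0.3 in size, against 18717 of all 22206 rows. The mean of 11 rows, or 29.7%, lay below the 25th percentile of all row means, beside 25% of all rows. Of these 11 rows, 8 were Galnt genes. The means of 22 of the 37 lay at or above the 50th percentile.

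**Figure D1:**
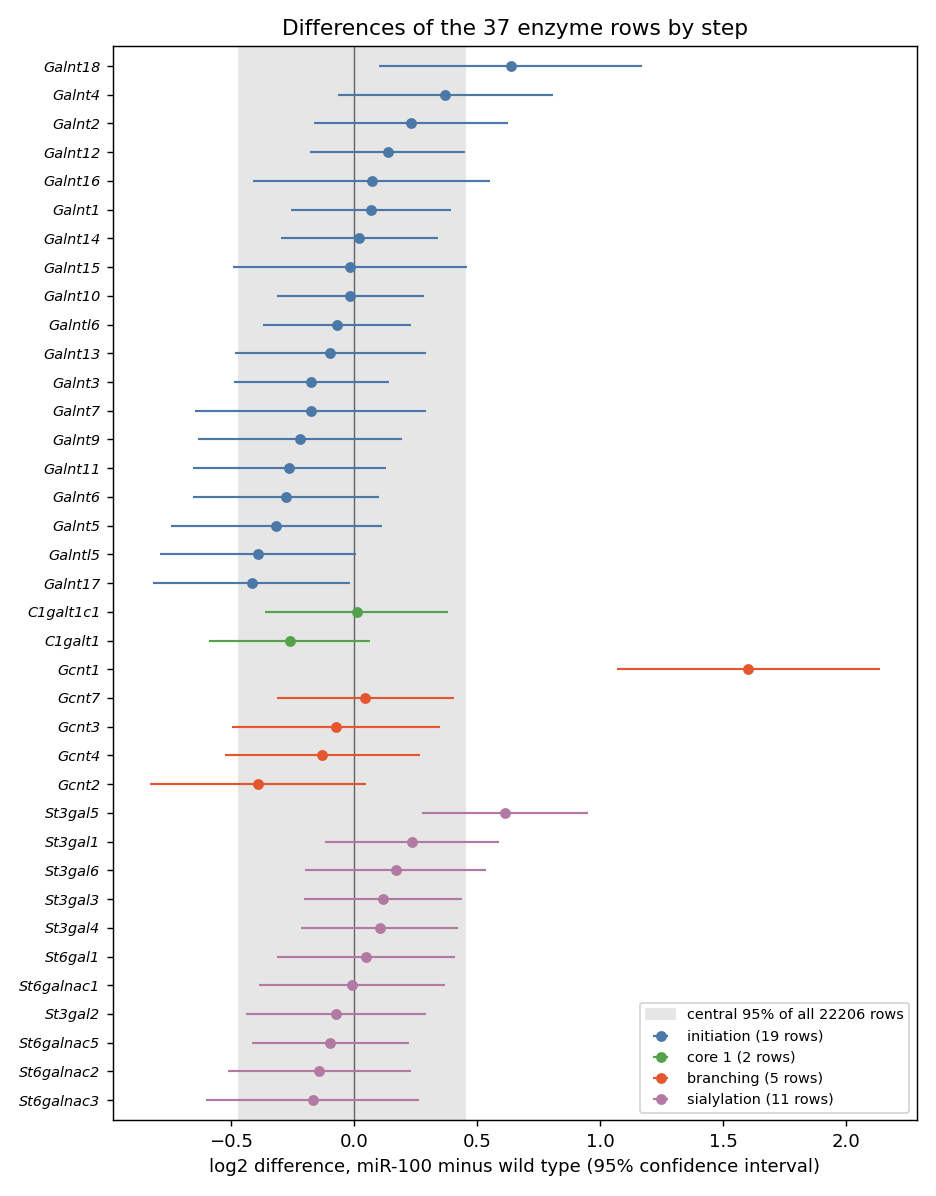
Differences of the 37 enzyme rows on the log2 scale (miR-100 minus wild type, points) with 95% confidence intervals from limma (lines), grouped and coloured by step. The grey band holds the central 95% of all rows, from -0.465 to 0.45; Gcnt1 at 1.60, St3gal5 at 0.61 and Galnt18 at 0.64 are the points to the right of it.

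Branching was the step with the called row. Gcnt1 adds the N-acetylglucosamine that makes core 2, the scaffold on which longer chains and selectin ligands are built. Its log2 signal was 6.07, 6.51, 6.39 and 5.76 in wild type replicates 1 to 4, and 8.53, 7.31, 7.53 and 7.77 in miR-100 replicates 1 to 4. Every miR-100 value lay above every wild type value, with a gap between 6.51 and 7.31, and miR-100 replicate 1 was the highest of all. Means were 6.18 ± 0.34 and 7.78 ± 0.53 (SD, n = 4 each). The difference was 1.60 (SE 0.25, 95% confidence interval 1.07 to 2.14, limma adjusted p = 0.0252). A two-sided exact permutation test over the 70 assignments gave p = 0.0286, the smallest it can give. It was the largest difference among the 37 enzymes, and the 7th largest of the 21 rows called higher in the whole table.

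The size of the Gcnt1 difference held up better than its call. Without single arrays it ran from 1.35 (without miR-100 replicate 1) to 1.76 (without miR-100 replicate 2). The limma adjusted p stayed under the threshold without miR-100 replicate 1 (0.0453) or 2 (0.0226). It rose above 0.05 when wild type replicate 1 (0.0734), 2 (0.0533), 3 (0.0577) or 4 (0.0656) or miR-100 replicate 3 (0.0723) or 4 (0.0957) was left out. The call was therefore kept in 2 of 8 such fits.

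The other branching enzymes gave no call. Gcnt2, which branches the linear chains of the i antigen into the I antigen, had 7.67, 8.42, 8.68 and 8.28 in wild type and 8.16, 7.78, 7.78 and 7.77 in miR-100 hearts. Wild type replicate 1 was the lowest of the 8 and miR-100 replicate 1 the highest of its group, so the groups overlapped. The difference of Gcnt2 was -0.39 (95% confidence interval -0.83 to 0.05, limma adjusted p = 0.698), and it was -0.59 without wild type replicate 1. Gcnt3, which can make both core 2 and core 4 in mucus-producing tissue, had means of 4.61 and 4.54. Gcnt4, a further core 2 enzyme, had 3.79 and 3.66, and Gcnt7 had 3.64 and 3.69. Gcnt3, Gcnt4 and Gcnt7 were all dim, at percentiles 33.7, 13.7 and 12.0 of row means.

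The log2 signal of Gcnt1 was also set against that of 10 partners on the same array. Gcnt1 was taken as the reference with its separation already known, and the 10 ratios share its values, so they largely restate its own difference and are given as a description, with no p. Relative to C1galt1, the enzyme that makes its substrate, Gcnt1 was at -2.88, -2.53, -2.42 and -3.14 in wild type and at 0.06, -1.49, -0.95 and -1.14 in miR-100 hearts. The shift was 1.86 (95% confidence interval 0.95 to 2.77). These ratios show unequal change between 2 rows, not which enzyme is more abundant.

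Against St3gal1, which caps core 1 and so competes with branching, the shift was 1.365 (95% confidence interval 0.41 to 2.32). Against Gcnt2 it was largest, at 1.99 (1.33 to 2.66). The shifts against Gcnt3, Gcnt4, Gcnt7, C1galt1c1, St3gal2, St6galnac1 and St6galnac2 lay between 1.555 and 1.74. The groups did not overlap in any of the 10 comparisons.

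**Figure D2:**
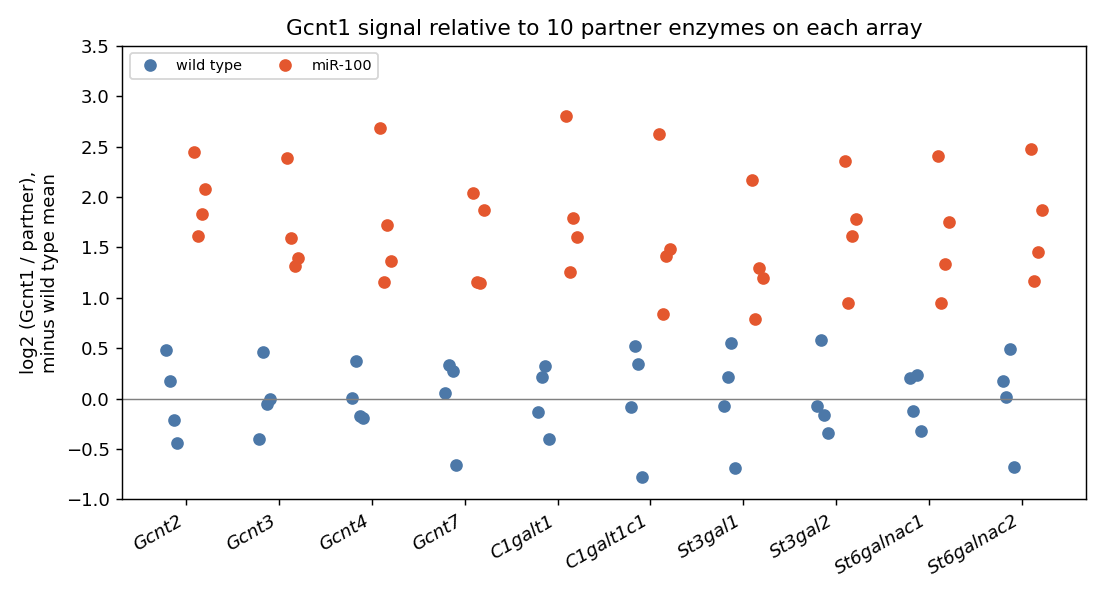
Log2 ratio of Gcnt1 to each of 10 partner enzymes on every array, centred on the wild type mean of that ratio (points, 4 wild type and 4 miR-100 arrays per partner). The miR-100 points lie above all wild type points for every partner, with shifts of the means from 1.365 (St3gal1) to 1.99 (Gcnt2).

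Core 1 synthesis needs C1galt1, the galactosyltransferase, and C1galt1c1 (Cosmc), the chaperone without which the transferase misfolds. C1galt1 had 8.95, 9.04, 8.81 and 8.90 in wild type and 8.47, 8.80, 8.48 and 8.91 in miR-100 hearts. In miR-100 replicates 1 and 3 the value was lower than in all wild type arrays, in replicate 2 it was just below them, and in replicate 4 it lay among them. The difference was -0.26 (95% confidence interval -0.59 to 0.07, limma adjusted p = 0.733). C1galt1c1 had 6.51 ± 0.25 and 6.52 ± 0.24 (SD, n = 4 each), which differ by 0.01 (95% confidence interval -0.36 to 0.38).

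The 19 Galnt rows were assigned to initiation by name, and 0 of them passed the test in limma, with 2 at an unadjusted p under 0.05. Of the 19, 7 had differences above 0 and 12 below, with a median of -0.07. Galnt1, a broadly expressed member that mouse heart valves need, had 10.60, 10.48, 10.07 and 10.42 in wild type and 10.43, 10.37, 10.54 and 10.51 in miR-100 hearts. These values overlapped throughout, and the difference was 0.07 (95% confidence interval -0.26 to 0.40). Galnt2, which acts on proteins of lipid metabolism, differed by 0.23 and by 0.06 without wild type replicate 2. Galnt11, which glycosylates receptors of the LDL receptor family, differed by -0.26 and by -0.09 without that array. Neither passed.

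The 2 initiation rows with the lowest p were Galnt18 and Galnt17. Galnt18 had 5.70, 4.98, 5.90 and 5.80 in wild type and 6.21, 6.85, 5.71 and 6.16 in miR-100 hearts. The low wild type value was replicate 2 and the high miR-100 value replicate 2, while miR-100 replicate 3 lay within the wild type range. Its difference was 0.64 (SE 0.25, limma adjusted p = 0.528, two-sided exact permutation p = 0.0857). It was 0.43 without miR-100 replicate 2, and also 0.43 without wild type replicate 2. Galnt17 had 7.02, 6.58, 6.20 and 6.51 in wild type and 6.43, 6.09, 6.20 and 5.93 in miR-100 hearts. Its groups overlapped between 6.20 and 6.43. The difference was -0.415 (SE 0.19, limma adjusted p = 0.625, two-sided exact permutation p = 0.0857), and -0.27 without wild type replicate 1.

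Among the other Galnt rows above the 50th percentile of row means, Galnt4, Galnt7 and Galnt10, which prefer substrates that already carry a sugar, differed by 0.37, -0.175 and -0.015. The Galnt4 value rested partly on miR-100 replicate 3 at 7.03, since it was 0.16 without that array. Galnt15 and Galnt16 differed by -0.015 and 0.07, and Galnt16 by -0.15 without wild type replicate 2. Among the dimmer rows, Galnt3, which protects the hormone FGF23 from cleavage, differed by -0.17. Galnt5, Galnt6, Galnt9, Galnt12, Galnt13, Galnt14, Galntl5 and Galntl6 differed by -0.39 (Galntl5) to 0.14 (Galnt12). Galnt5 and Galnt6 differed by -0.315 and -0.275, and by -0.18 and -0.12 without wild type replicate 2. Means of these 9 dim rows lay at or below percentile 26.1.

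**Figure D3:**
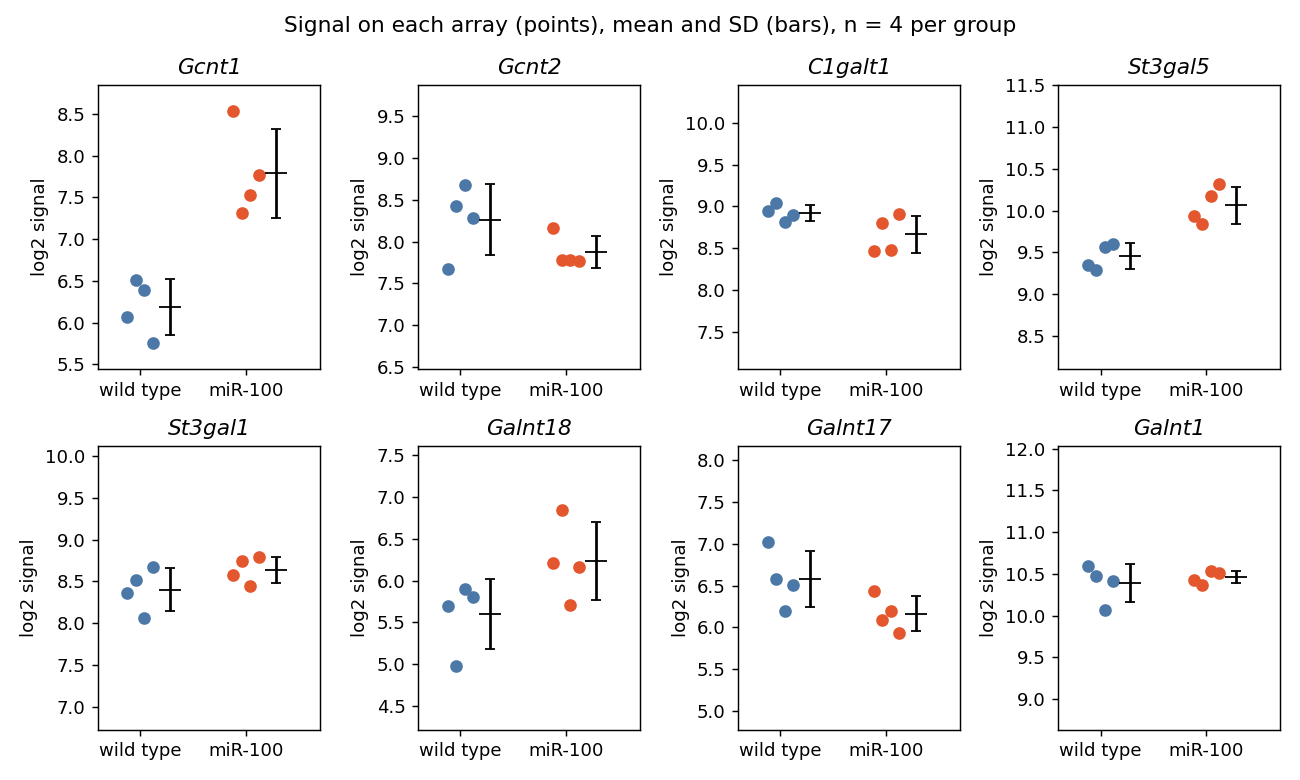
Log2 signal of 8 enzymes on each array (points, blue wild type, red miR-100) with the mean and SD of each group beside them (n = 4 each); each panel spans the same height on the log2 axis. Gcnt1 and St3gal5 show no overlap between groups, with gaps from 6.51 to 7.31 and from 9.60 to 9.84, and the other 6 overlap.

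Sialylation was measured by 11 rows, of which 0 passed in limma and 1, St3gal5, had an unadjusted p under 0.05. St3gal5 makes GM3, the ganglioside from which most others are built, and so acts on glycolipids and not on O-glycans. It had 9.35, 9.29, 9.57 and 9.60 in wild type and 9.93, 9.84, 10.17 and 10.32 in miR-100 hearts, and every miR-100 value was higher than every wild type value. Means were 9.45 ± 0.16 and 10.06 ± 0.22 (SD, n = 4 each), a 1.53-fold ratio. The difference was 0.61 (SE 0.16, 95% confidence interval 0.28 to 0.95). It missed the threshold over all rows (limma adjusted p = 0.226, the 170th lowest p of the table), with a two-sided exact permutation p of 0.0286. Without single arrays the difference ran from 0.53 to 0.69, and the limma adjusted p from 0.258 to 0.451.

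The St3gal enzymes that act on O-glycans and lactosamine chains differed little. St3gal1 had 8.36, 8.52, 8.06 and 8.67 in wild type and 8.58, 8.74, 8.45 and 8.79 in miR-100 hearts, which overlap, with a difference of 0.24 (95% confidence interval -0.12 to 0.59). St3gal2, which also caps core 1, differed by -0.07 (95% confidence interval -0.44 to 0.29). St3gal3, St3gal4 and St3gal6, which cap lactosamine ends and help make sialyl Lewis x, differed by 0.12, 0.11 and 0.17. Without wild type replicate 2 these were 0.026, 0.062 and 0.26, and St3gal6 was at 0.055 without miR-100 replicate 3. St3gal3 and St3gal6 were well above the dim rows, at percentiles 95.9 and 93.0 of row means. The intervals of St3gal3 (-0.20 to 0.44) and St3gal6 (-0.20 to 0.54) do not reach a change of 1 in either direction. St3gal4 had 9.12 in miR-100 replicate 3 against 8.76 to 8.81 in the other 3 of its group, and its difference was 0.02 without that array.

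The enzymes that add sialic acid in the other linkage also gave no call. St6gal1, which caps N-linked chains, had 6.70 ± 0.32 and 6.75 ± 0.07 (SD, n = 4 each), with its lowest value, 6.29, in wild type replicate 2. Its difference was 0.05, and -0.087 without that array. St6galnac1, which makes sialyl-Tn, and St6galnac2, which sialylates the GalNAc of core 1, differed by -0.01 and -0.14, and by 0.14 and -0.037 without wild type replicate 2. St6galnac3 and St6galnac5, which act on gangliosides or on chains that already carry sialic acid, differed by -0.17 and -0.095, and St6galnac3 by -0.27 without the same array.

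Around these families, other genes of the pathway were read from lists of donors, extenders, glycosidases, acceptors and binding proteins. Of 14 of 16 listed genes of sugar donor supply that were measured, 0 passed in limma and 1 was higher at an unadjusted p under 0.05, against 3.55% of all rows. That was Nans, the sialic acid synthase, at 0.365 (limma adjusted p = 0.631). Gne, which starts sialic acid synthesis, Cmas, which activates it, and Slc35a1, which carries it into the Golgi, differed by 0.14, 0.17 and -0.09. The list's median was 0.16, with 10 of 14 above 0, beside -0.015 and 10416 of 22206 over all rows. No result about the list as a whole is read from these values.

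Of 30 of 31 listed genes of chain extension and other capping, 0 passed in limma, and 4 were lower and 0 higher at an unadjusted p under 0.05, against 4.17% and 3.55% of all rows. B4galt4, a galactosyltransferase that extends chains, had 7.63 ± 0.32 and 7.08 ± 0.15 (SD, n = 4 each), which differ by -0.55 (limma adjusted p = 0.385). B3gnt2, which builds lactosamine repeats, B3gnt5, which extends glycolipids, and Fut4, a fucosyltransferase of Lewis structures, were the others. Their group means were 9.06 and 8.68, 4.48 and 3.92, and 3.96 and 3.41, wild type first. The groups overlapped in all 4, of which B3gnt2, with the highest p, lies outside the naming rule and was named after its values were seen. The list's median was 0.02, with 17 above 0 and 13 below.

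Among the proteins that carry O-glycans, 15 of 16 listed genes were measured, 0 passed in limma, and 2 were higher at an unadjusted p under 0.05, against 3.55% of all rows. Nppb encodes the O-glycosylated prohormone of B-type natriuretic peptide. It had 11.81, 10.41, 10.73 and 11.58 in wild type and 12.05, 13.34, 12.51 and 12.22 in miR-100 hearts, which do not overlap, although the gap from 11.81 to 12.05 is small. It differed by 1.40 (limma adjusted p = 0.176), and 2.21% of all rows were higher without overlap. Cd44, a hyaluronan receptor, had 7.06 ± 0.43 and 7.84 ± 0.50 (SD, n = 4 each), which differ by 0.78 (limma adjusted p = 0.404). The selectin ligand gene Selplg differed by 0.003 and dystroglycan, Dag1, by 0.04. The median of the list was 0.003.

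Of 16 of 17 listed genes for glycan-binding proteins, 0 passed in limma and 2 were lower at an unadjusted p under 0.05, against 4.17% of all rows. Lgals4, a galectin, had 10.87, 10.35, 9.98 and 9.81 in wild type and 9.77, 9.70, 9.06 and 7.83 in miR-100 hearts. Its groups touched closely, at 9.81 and 9.77, without overlap, as in 2.33% of all rows that were lower. The difference was -1.16 (SE 0.37, limma adjusted p = 0.376). Siglecf, on a dim row, was higher without overlap, as in 2.21% of all rows. Its values were 3.83 to 3.93 in wild type and 3.94 to 4.22 in miR-100 hearts (limma adjusted p = 0.766). Sele, the selectin of activated endothelium, differed by -0.38 on a dim row. Of the 6 measured genes of 8 listed for sugar removal, 0 passed in limma and 0 had an unadjusted p under 0.05, with the sialidase gene Neu1 at 0.05.

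**Figure D4:**
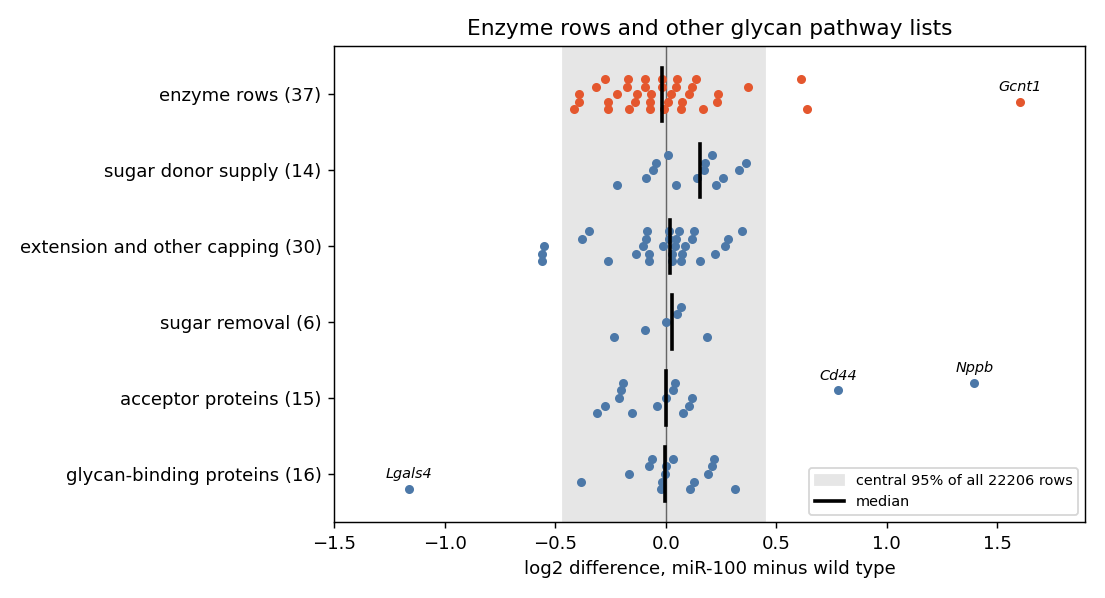
Log2 differences (miR-100 minus wild type) of the 37 enzyme rows and of the measured genes of 5 other pathway lists, 1 point per gene, with the median of each list as a bar. The grey band holds the central 95% of all rows; the named points are Gcnt1 at 1.60, Nppb at 1.40, Cd44 at 0.78 and Lgals4 at -1.16.

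The rows that neighbour Gcnt1 on chromosome 19, in the order of the RefSeq gene table, did not pass. Vps13a, Foxb2 and Prune2 on one side differed by -0.16, 0.05 and 0.19, and Rfk, Pcsk5 and Ostf1 on the other by -0.06, 0.03 and 0.16. All 6 had overlapping groups, so the difference of Gcnt1 was not shared by the rows beside it.

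The ventricle is a mixture of cells, and in such samples fewer cells of a type and less RNA per cell cannot be told apart. Mean log2 signals over 5 heart muscle markers ran from 18.67 to 18.68 in wild type and from 18.67 to 18.76 in miR-100 hearts. Those of 5 endothelial markers ran from 11.40 to 11.49 and from 11.34 to 11.54, and of 4 macrophage markers from 8.92 to 9.37 and from 8.99 to 9.24. Ranges also overlapped for fibroblast, smooth muscle and pericyte, neutrophil, T cell, B cell, red cell, mesothelial, Schwann and atrial muscle markers, of which 1 of 5 red cell and 1 of 3 Schwann genes were measured. They did not overlap for 3 adipocyte markers, Adipoq, Plin1 and Cidec, at 3.80 to 4.01 and 4.03 to 4.45, of which 2 rows lay below the 25th percentile. Among single markers, 1 smooth muscle and pericyte row was higher without overlap and 1 neutrophil row lower, against 2.21% and 2.33% of all rows. Of all markers, Acta2, the smooth muscle actin, had the largest difference, 1.11 (limma adjusted p = 0.203). The others of its list, Myh11, Tagln, Rgs5 and Pdgfrb, differed by -0.06, -0.19, 0.03 and -0.135. The part of the adipocyte markers and of Acta2 in the Gcnt1 result was not tested.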

How the data were processed

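Left ventricular RNA of 8 mice was measured on 8 Affymetrix arrays. The deposited values are log2 signals per array row, for which the submitters' processing notes name Transcriptome Analysis Console 4.0; how they were normalized and on which genome build is not given in the sources used here. Column medians of 5.70 to 5.74 show a common scale. Precision is limited by there being 4 arrays a group. Of 22206 rows, 19572 carried 1 gene symbol in the platform annotation, 0 several and 2634 none. All 19572 Entrez numbers were found in the RefSeq gene table of GRCm38.p6, with 0 symbols changed.

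All rows were fitted with limma 3.58.1 (R 4.3.3) without covariates or filters. The Benjamini-Hochberg adjustment ran over the whole table, at a threshold of 0.05, and the fit was tested on simulated data. Single values were compared by exact permutation over 70 assignments. All family rows are named, and from the other lists rows past the threshold and up to 3 per direction at an unadjusted p under 0.05. Other genes are named as examples after their values were seen. Members, lists and tests were chosen with earlier results of these data known. Alternatives were array weights, an intensity trend, quantile normalization, robust moderation, median centring, filters at percentiles 25 and 50, an adjusted p of 0.1, a replicate block and leaving out each array. Where a list gene had several rows, the brightest stood for it.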

Additional observations from a re-analysis of the deposited data

Results flagged for a closer look

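In 5 of 114 groups of 4 arrays, 1 array lay far from the other 3; chance gives about 1 in 20 groups. Gcnt2 had 8.16 in miR-100 replicate 1, against 7.77 to 7.78 in the others of its group. Galntl5 had 4.11 in wild type replicate 1, against 3.52 to 3.60. St3gal4 had 9.12 in miR-100 replicate 3, against 8.76 to 8.81. Nans had 7.17 in wild type replicate 1, against 6.62 to 6.64, and Fut4 had 3.42 in wild type replicate 4, against 4.13 to 4.16. No array was far from its group for Gcnt1, St3gal5 or the 10 ratios of Gcnt1 to its partners.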

How the results depend on the processing

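Under array weights, an intensity trend, quantile normalization, robust moderation, median centring and filters at percentiles 25 and 50, Gcnt1 stayed past the threshold, with differences from 1.58 to 1.64 and limma adjusted p from 0.0088 to 0.0320. The count of all rows past the threshold was 31, and 65 with an intensity trend or at an adjusted p of 0.1, with 1 family row each time. With the replicate block, all rows fell to 21, family rows to 0, and Gcnt1 had a difference of 1.60 with a limma adjusted p of 0.0602. Deviations of same-numbered arrays from their group means correlated at -0.06 to 0.07 over all rows. These correlations cannot exclude a pairing that affects only some rows. Leaving out single arrays gave 11 to 27 rows in all, 0 to 1 family rows past the threshold, 2 to 6 family rows without overlap, 1.35 to 1.76 for Gcnt1, and shifts of Gcnt1 of 1.25 to 1.84 against C1galt1c1, 1.10 to 1.56 against St3gal1, 1.45 to 1.92 against St3gal2 and 1.34 to 1.83 against St6galnac1. In these fits 7.07% (without miR-100 replicate 1) to 8.27% (without wild type replicate 4) of all rows did not overlap, beside 4.54% with all arrays. The 6 rows came without wild type replicate 1, where that share was 7.40%. The cause of these changes was not tested. Leaving out an array also left fewer arrays in the fit.

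Uncalled rows near 0 changed sign without single arrays. The ranges were -0.078 to 0.13 for C1galt1c1, -0.0375 to 0.14 for Galnt1, -0.084 to 0.026 for Galnt10, -0.22 to 0.026 for Galnt13, -0.036 to 0.11 for Galnt14, -0.22 to 0.14 for Galnt15, -0.15 to 0.19 for Galnt16 and -0.32 to 0.0125 for Galnt7. They were -0.21 to 0.06 for Gcnt3, -0.245 to 0.00083 for Gcnt4, -0.0375 to 0.16 for Gcnt7, -0.16 to 0.051 for St3gal2, -0.087 to 0.17 for St6gal1 and -0.11 to 0.14 for St6galnac1. With array weights, C1galt1c1 was at -0.00080, St6galnac1 at 0.052, Galnt16 at -0.013 and Galnt14 at -0.0059. No direction is claimed for these rows. Of the 37 family rows, 11 or 29.7% had a mean below the 25th percentile of all row means, beside 25% of all rows.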

Other observations

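Genes next to St3gal5 in glycolipid synthesis were read after its values were seen, and are given as a description. Ugcg, which makes the glucosylceramide that starts gangliosides, averaged 8.74 ± 0.59 in wild type hearts against 8.52 ± 0.36 (SD, n = 4 each). B4galt5 and B4galt6, which turn it into the lactosylceramide that St3gal5 sialylates, differed by 0.22 and 0.13. B4galnt1, St8sia1, St8sia5 and B3galt4, which extend GM3 into other gangliosides, differed by -0.01, -0.01, 0.09 and -0.205, and A4galt, which draws lactosylceramide into globosides, by 0.03. The degrading genes Neu3, Hexa and Gm2a differed by -0.235, 0.17 and -0.17. Of 11 measured genes of 12 listed, 0 passed in limma and 0 had an unadjusted p under 0.05.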
